A study of Mus musculus with 26 samples.

Results

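The cytokine receptors described here are 9 genes, taken by symbol from the 23416 genes of the expression table: Epor, Csf3r, Csf2ra, Csf2rb, Il6st, Ifngr1, Ifnar1, Csf1r and Kit. Of these, 6 signal through the kinase JAK2 (Epor, Csf3r, Csf2ra, Csf2rb, Il6st and Ifngr1), and the other 3 do not (Ifnar1, Csf1r and Kit). Il6st also uses other kinases of that family, and Ifngr1 reaches JAK2 through its partner chain Ifngr2. A stricter JAK2 list would leave out both. They were measured by Smart-Seq2, a full-length cDNA method for small amounts of RNA, in 26 libraries of mouse haematopoietic stem cells (HSCs), which had been sorted out of bone marrow. The libraries fall into double mutant (JAK2V617F with Ezh2 loss, n = 7), JAK2V617F (n = 7), Ezh2 loss (n = 7) and control (labelled WT, n = 5). JAK2V617F is the activating kinase mutation of human myeloproliferative neoplasms, and Ezh2 is the methyltransferase of histone H3 lysine 27 in Polycomb repressive complex 2. The cells that carry each change, the promoter or Cre used, the strain, age and sex, and the number of cells per library were not given in the sources used here. The labels do not say whether each replicate is its own mouse, so the p-values below rest on library-to-library spread, which may be technical.

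Receptors of the haematopoietic cytokines have no kinase of their own and bind JAK kinases, which phosphorylate the receptor tail and STAT factors once a ligand brings the chains together. JAK2V617F needs a receptor as a scaffold, best known for the homodimeric receptors of erythropoietin and G-CSF. Ifnar1 binds TYK2 instead, and Csf1r and Kit are tyrosine kinases themselves, with Kit required for the upkeep of HSCs.

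Levels are RPKM (read counts scaled by gene length and library size) as deposited. Changes are log2 fold changes of RPKM + 1 from limma, a linear model with moderated variances, fitted to the 12116 genes that reached 1 RPKM in 5 or more libraries. A gene was called at adjusted p under 0.05 (Benjamini-Hochberg over all tested genes, two-sided). Library titles carry their number before or after the group code, in 15 and 11 libraries. The number-first style covers 7 of 7 double mutant, 2 of 7 JAK2V617F, 2 of 7 Ezh2 loss and 4 of 5 control libraries, so title style was a term of the fit. The labels do not say what the style stands for. It was associated with 1331 called genes, and 0 of the 9 receptors were among them, where 11% of all tested genes were called. At an unadjusted p under 0.05 it took in 1 receptor, Ifnar1, which was lower in number-first libraries (log2 -0.81, SE 0.36, limma adjusted p = 0.170), where 23.4% of all genes passed. Estimated depth averaged 21.1 M reads (M, mega) in double mutant, 13.5 M in JAK2V617F, 14.03 M in Ezh2 loss and 17.5 M in control libraries, and ran from 7.82 M to 29.2 M.

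The 9 HSC marker genes checked against the label were present, with 8 or 9 of them at RPKM of at least 1 in every library. Among the 9, Cd34 was listed as a marker that is low in HSCs, so its presence does not speak for the label. It ran from 14.6 to 135 RPKM. The targeted genes overlapped between groups. Ezh2 ran from 6.71 to 31.4 RPKM in double mutant libraries (median 15.1), from 20.4 to 40.2 in JAK2V617F and from 5.15 to 31.4 in Ezh2 loss (median 15.4), and was at 18.1, 29.6, 29.5, 8.11 and 33.2 in control libraries. Ezh2 in Ezh2 loss against control was at log2 -0.44 (SE 0.45, limma adjusted p = 0.954), and a gene total cannot show a deleted exon. Jak2 averaged 11.3 ± 7.93 RPKM in double mutant, 12.8 ± 5.71 in JAK2V617F, 17.8 ± 9.37 in Ezh2 loss and 16.2 ± 4.71 in control libraries (SD, n = 7, 7, 7 and 5), and gene totals do not show the V617F base change.

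The promoter windows of 3 receptors are shown because they belong to the receptors the results turn on. Csf3r and Ifngr1 had the smallest p-values among the 9 in the double mutant. Of the 7 receptors whose window was examined, Ifnar1 alone holds the motif TTCNNNGAA, the form bound by STAT5. Each window runs from 250 bases before to 50 after the gene start (RefSeq, GRCm38.p6), 5′ to 3′ on the gene's strand. Capitals mark GAGGAAG, a form bound by the myeloid factor PU.1, in Csf3r, and TTCNNNGAA in Ifnar1, and the Ifngr1 window has neither.
Csf3r, chr4:126024409-126024708, plus strand: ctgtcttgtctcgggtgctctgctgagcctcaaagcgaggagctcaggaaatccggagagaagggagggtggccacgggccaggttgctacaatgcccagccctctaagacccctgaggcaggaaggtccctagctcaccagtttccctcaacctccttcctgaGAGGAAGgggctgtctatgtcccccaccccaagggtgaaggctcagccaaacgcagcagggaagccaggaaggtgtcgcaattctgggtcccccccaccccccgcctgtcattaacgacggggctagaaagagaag
Ifngr1, chr10:19591699-19591998, plus strand: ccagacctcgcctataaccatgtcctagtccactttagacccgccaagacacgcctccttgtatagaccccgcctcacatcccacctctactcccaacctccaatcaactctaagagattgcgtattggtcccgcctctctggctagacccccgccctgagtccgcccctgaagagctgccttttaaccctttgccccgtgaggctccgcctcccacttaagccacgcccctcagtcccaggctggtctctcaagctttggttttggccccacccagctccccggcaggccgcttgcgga
Ifnar1, chr16:91484965-91485264, plus strand: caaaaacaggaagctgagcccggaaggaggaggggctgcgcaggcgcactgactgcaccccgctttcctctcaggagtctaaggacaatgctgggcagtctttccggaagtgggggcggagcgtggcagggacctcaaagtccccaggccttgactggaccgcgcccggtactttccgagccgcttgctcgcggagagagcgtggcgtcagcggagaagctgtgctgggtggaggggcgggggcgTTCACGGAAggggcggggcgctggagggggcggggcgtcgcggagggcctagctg
Windows were examined for 7 of the 9 receptors. No window matched Csf2rb, and Csf1r was left out beforehand with its chromosome. TTCNNNGAA, which reads the same on both strands, was in 1 of the 7 and in 8.298% of 32851 mouse windows. GAGGAAG on either strand was in 3 (Csf3r, Csf2ra and Kit) and in 13.63% of all windows. A match describes the letters and is not a binding site.

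The receptors covered a wide range of levels. Ifngr1 and Kit stood at the top, with medians over the 26 libraries of 127 and 86.4 RPKM. Csf2ra (21.3) and Ifnar1 (21.04) followed, then Epor (10.2) and Csf3r (10.1), then Csf2rb (2.98) and Il6st (2.26), and Csf1r had a median of 0. Kit was above Csf2ra in 26 of 26 libraries, and Ifngr1 was above Kit in 18 of 26. Csf2ra and Ifnar1 each led in 13 libraries, Epor led Csf3r in 14 of 26, and Csf2rb led Il6st in 13 with 1 tie, so the order inside these 3 pairs was not stable between libraries. Spread between libraries of a group was smaller for Ifngr1 than for the low receptor Csf2rb. The coefficient of variation of Ifngr1 was 13.8% in double mutant, 28.5% in JAK2V617F, 28.1% in Ezh2 loss and 38.3% in control libraries. In the same order it was 103%, 97.6%, 92.5% and 96.7% for Csf2rb. For Kit it was 32.5%, 23.4%, 14.5% and 16.1%, below Ifngr1 in all groups but the double mutant. Smart-Seq2 has no molecular identifiers here, so the read counts below are not counts of molecules and their intervals and limits cover counting error only.

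**Figure D1:**
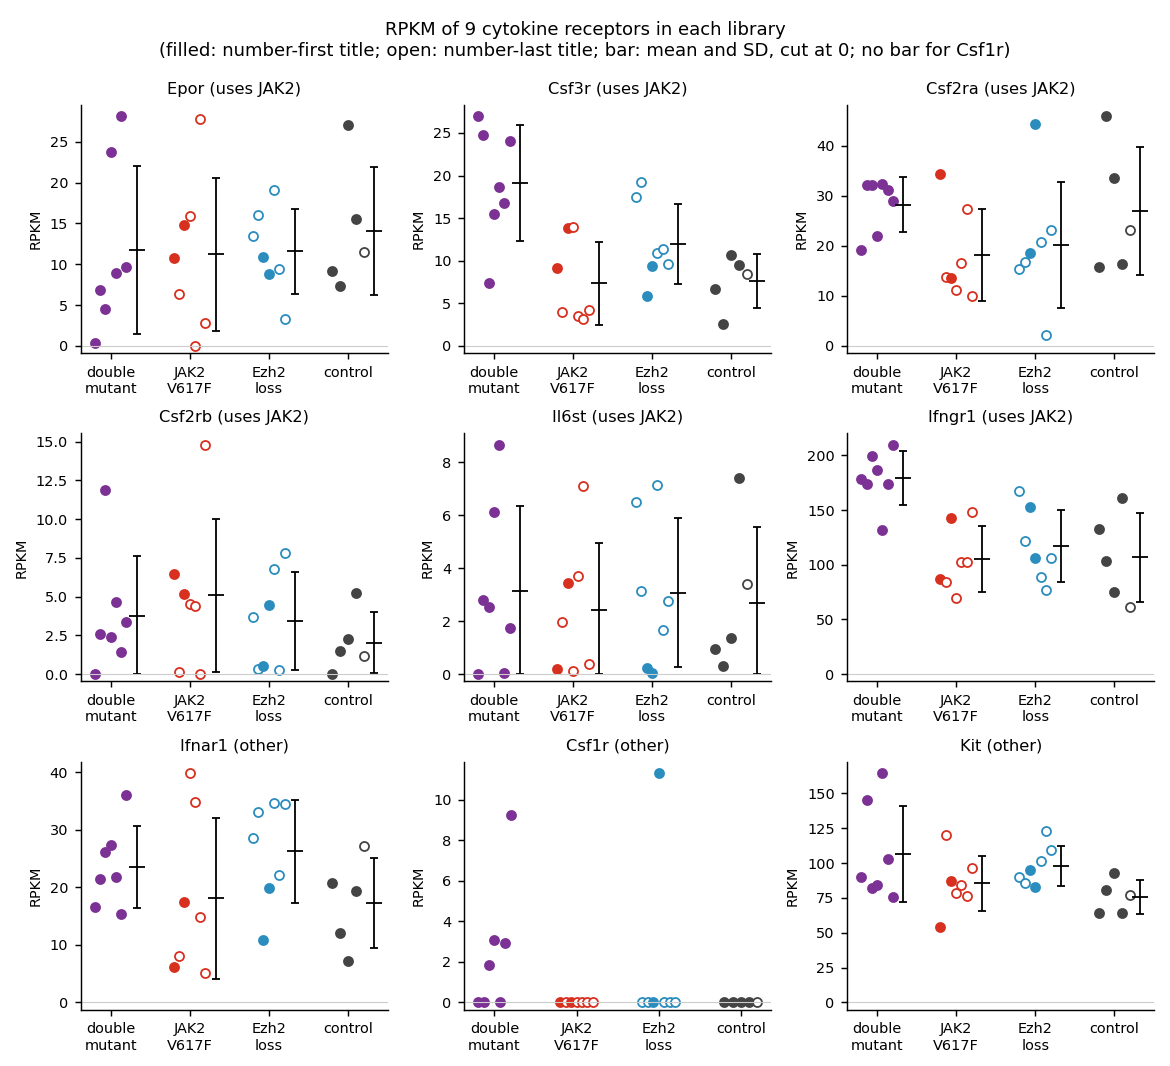
RPKM of each receptor (vertical axes) in each library of the double mutant, JAK2V617F, Ezh2 loss and control groups, with filled points for number-first and open points for number-last titles, and bars for mean and SD. Ifngr1 and Csf3r lie above the highest control in 6 of 7 double mutant libraries, and Csf1r is at 0 in most libraries.

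None of the 9 receptors was called in the double mutant against control, the comparison that adds both lesions, where 0.00825% of all genes were called. At an unadjusted p under 0.05 there were 3 of 9 (Ifngr1, Csf3r and Kit, all higher), where 6.17% of all genes passed. Of the 8 receptors other than Csf1r, 7 were higher and 1 was lower, with a median log2 change of 0.48, against -0.0067 over all tested genes. With Csf1r included the median of the 9 was 0.49. Split by kinase, 5 of the 6 JAK2-using receptors were higher, with a median of 0.37. The other 3 were all higher, with a median of 0.66 (0.57 for Ifnar1 and Kit alone). On the stricter list, Epor, Csf3r, Csf2ra and Csf2rb were at -0.70, 1.24, 0.02 and 0.47. In the 15 number-first libraries alone 0 of 9 were called (0% of all genes) and 2 of 9 passed at the unadjusted p, Csf3r and Ifngr1, where 6.91% of all genes did.

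Csf3r, the receptor of G-CSF, drives granulocyte production and mobilises HSCs (chr4:126024550-126044440, plus strand, GRCm38). It ran from 7.35 to 26.9 RPKM in double mutant libraries (median 18.6), from 3.15 to 13.9 in JAK2V617F (median 4.15) and from 5.83 to 19.2 in Ezh2 loss (median 10.96). The controls were at 6.71, 2.55, 10.7, 9.50 and 8.46. In 6 of 7 double mutant libraries Csf3r was above the highest control, while replicate 3 was inside the control range, as were 5 of 7 JAK2V617F and 3 of 7 Ezh2 loss libraries. The log2 fold change was 1.24 in the double mutant (SE 0.44, 95% interval 0.34 to 2.14, unadjusted p = 0.00863, limma adjusted p = 0.622). It was -0.11 in JAK2V617F (SE 0.48) and 0.65 in Ezh2 loss (SE 0.48), both with intervals that span 0. In number-first libraries alone the double mutant value was 1.31 (SE 0.42, adjusted p = 0.704).

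Csf3r is abundant in mature neutrophils, so its level was read beside their transcripts. The 8 neutrophil markers summed to 43.2 to 52098 RPKM in double mutant, 72.9 to 17655 in JAK2V617F, 404 to 38181 in Ezh2 loss and 39.5 to 388 in control libraries, with 3 to 8, 3 to 8, 5 to 8 and 2 to 5 of the 8 at RPKM of at least 1. The mean log2 level of 6 granule genes was above the highest control in 3 of 7 double mutant, 1 of 7 JAK2V617F and 7 of 7 Ezh2 loss libraries. The double mutant libraries with the most of these transcripts, replicates 3 and 4, had the lowest Csf3r of the group, at 7.35 and 15.5 RPKM. Replicate 7, slightly above the controls in that level, had 24.1 RPKM. Replicates 1, 2, 5 and 6, whose neutrophil level was not above the highest control, had 26.9, 24.8, 18.6 and 16.8 RPKM. The other groups did not share this order. In JAK2V617F the library with the highest level, replicate 3, had 13.8 RPKM, in a group range of 3.15 to 13.9 (median 4.15). In Ezh2 loss it was replicate 6, with 11.4 RPKM (group median 10.96). Among controls it was replicate 4, with 9.50 RPKM (range 2.55 to 10.7). What neutrophils add to the Csf3r values was not tested. With the neutrophil level as a covariate the Csf3r change in the double mutant was 1.27 (SE 0.47, limma adjusted p = 0.773). Without the neutrophil-high libraries, an alternative chosen after seeing the data, it was 1.44 (SE 0.52, adjusted p = 0.603).

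**Figure D2:**
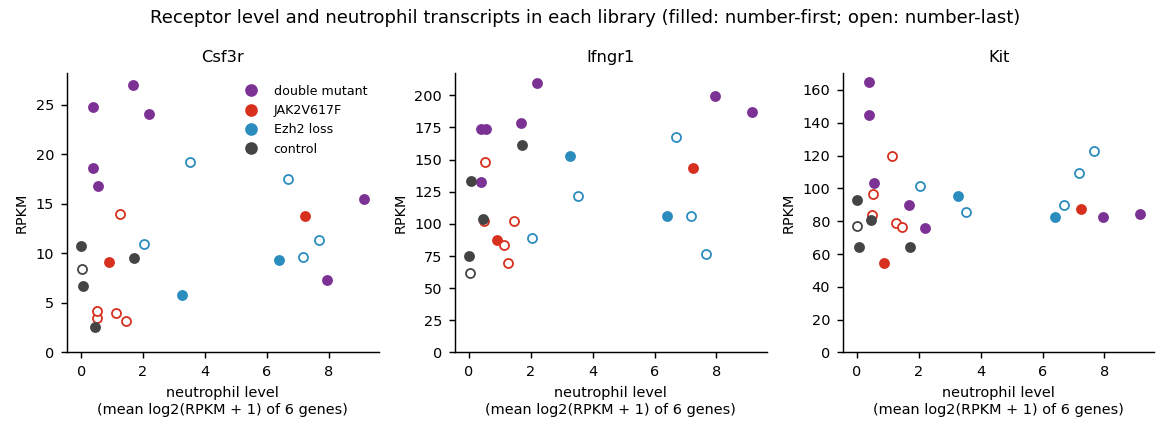
RPKM of Csf3r, Ifngr1 and Kit (vertical axes) against the mean log2(RPKM + 1) of 6 neutrophil granule genes (horizontal axes), 1 point per library, coloured by group. The 2 double mutant libraries with the highest neutrophil level have Csf3r of 7.35 and 15.5, and the 4 whose level is not above the highest control have 16.8 to 26.9. The library with the highest level has Csf3r of 13.8 in JAK2V617F and 11.4 in Ezh2 loss.

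Epor, the receptor of erythropoietin and a scaffold for JAK2V617F in erythroid progenitors (chr9:21958897-21963506, minus strand), overlapped between all groups. It ran from 0.38 to 28.1 RPKM in double mutant libraries (median 8.91), from 0 to 27.8 in JAK2V617F (median 10.7) and from 3.32 to 19.1 in Ezh2 loss (median 10.9), and the controls were at 9.18, 7.33, 27.02, 15.5 and 11.5. Below the lowest control were 3 of 7 double mutant, 3 of 7 JAK2V617F and 1 of 7 Ezh2 loss libraries. Above the highest control were 1, 1 and 0 libraries of these groups. JAK2V617F replicate 5 held 0 reads, which allows up to 0.101 RPKM, and double mutant replicate 1 held 12. The log2 change was -0.70 in the double mutant (SE 0.70), -0.54 in JAK2V617F (SE 0.76) and -0.06 in Ezh2 loss (SE 0.76), with limma adjusted p of 0.958, 0.999 and 0.996. The double mutant interval was -2.13 to 0.73. The 10 erythroid markers summed to 5.29 to 42.1 RPKM in double mutant, 2.46 to 27.1 in JAK2V617F, 30.8 to 6190 in Ezh2 loss and 5.75 to 22.3 in control libraries, and their part in the Epor values was not tested.

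Csf2ra is the ligand-binding chain of the GM-CSF receptor (chr19:61223957-61228429, minus strand), and Csf2rb is the signalling chain it shares with the receptors of IL-3 and IL-5 (chr15:78325752-78353847, plus strand). Csf2ra ran from 19.2 to 32.3 RPKM in double mutant libraries (median 31.2), from 10.05 to 34.4 in JAK2V617F (median 13.8) and from 2.08 to 44.3 in Ezh2 loss (median 18.6), and the controls were at 15.8, 46.0, 33.6, 16.3 and 23.2. The double mutant libraries were the tightest group and lay inside the control range, while 4 of 7 JAK2V617F and 2 of 7 Ezh2 loss libraries were below the lowest control. The log2 change of Csf2ra was 0.02 in the double mutant (SE 0.43), -0.21 in JAK2V617F (SE 0.47) and -0.25 in Ezh2 loss (SE 0.47), and none was called.

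Csf2rb ran from 0 to 11.9 RPKM in double mutant libraries (median 2.61), from 0.0235 to 14.8 in JAK2V617F (median 4.54) and from 0.289 to 7.80 in Ezh2 loss (median 3.70), and the controls were at 0, 1.49, 2.24, 5.24 and 1.19. Within 1 genotype the read counts spread widely: double mutant replicates 1 and 3 held 0 and 1164 reads, and JAK2V617F replicates 6 and 7 held 1 and 596. The log2 change of Csf2rb was 0.47 in the double mutant (SE 0.71), 0.89 in JAK2V617F (SE 0.77, the largest of the 9 there) and 0.54 in Ezh2 loss (SE 0.77). A neighbouring close copy, Csf2rb2, the IL-3-specific beta chain of the mouse (chr15:78282507-78305721, minus strand), could share reads with it, so the level of Csf2rb is uncertain. Csf2rb2 was lower than Csf2rb in 21 of 26 libraries, higher in 3 and also at 0 in the 2 with Csf2rb at 0, with a range of 0 to 3.04 RPKM.

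Il6st (gp130) is the signal chain shared by IL-6, IL-11, LIF and oncostatin M (chr13:112464070-112510086, plus strand). It ran from 0 to 8.66 RPKM in double mutant libraries (median 2.55), from 0.116 to 7.08 in JAK2V617F (median 1.98) and from 0.0368 to 7.13 in Ezh2 loss (median 2.78), and the controls were at 0.931, 0.312, 1.35, 7.40 and 3.40. Over all libraries the groups overlapped. Among number-first libraries the 2 Ezh2 loss libraries were at 0.245 and 0.0368 (19 and 5 reads). The lowest of the 4 controls there was at 0.312 (33 reads). How many of all genes part 2 such libraries from 4 was not counted, so no result is drawn from it. The log2 change there was -1.23 (SE 0.94, limma adjusted p = 0.882). Its log2 change over all libraries was 0.28 in the double mutant (SE 0.64), -0.70 in JAK2V617F (SE 0.70, the lowest of the 9 there) and -0.44 in Ezh2 loss (SE 0.70, again the lowest), and none was called. Its double mutant interval, -1.03 to 1.60, takes in both 0 and the 1.24 of Csf3r, so a change of that size could not be told from none.

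Ifngr1, the ligand-binding chain of the interferon-gamma receptor, binds JAK1 and signals with Ifngr2, which carries JAK2 (chr10:19591949-19610229, plus strand). Its level ran from 132 to 210 RPKM in double mutant libraries (median 178), from 69.2 to 148 in JAK2V617F (median 102) and from 76.9 to 168 in Ezh2 loss (median 107), and the controls were at 133, 104, 74.9, 161 and 61.7. In 6 of 7 double mutant libraries it was above the highest control, with replicate 5 the exception, while 0 of 7 JAK2V617F and 1 of 7 Ezh2 loss libraries were. Double mutant replicates 3, 4, 6 and 7, at 199, 187, 174 and 210 RPKM, carry title numbers from 23 to 27, which no control or JAK2V617F library has. Replicates 1, 2 and 5, with lower title numbers, were at 178, 174 and 132 RPKM. Ifngr1 averaged 179 ± 24.7 RPKM in double mutant and 107 ± 40.9 in control libraries (SD, n = 7 and 5). The log2 change was 0.74 in the double mutant (SE 0.23, 95% interval 0.28 to 1.21, unadjusted p = 0.00263, limma adjusted p = 0.485), 0.20 in JAK2V617F (SE 0.24) and 0.35 in Ezh2 loss (SE 0.24). In number-first libraries the double mutant value was 0.64 (SE 0.22, adjusted p = 0.704).

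The partner chain Ifngr2 had a different pattern. It was chosen by the smallest p among 10 further tested receptors of the JAK2 families, over all genotype comparisons. It ran from 14.5 to 68.8 RPKM in double mutant libraries (median 18.9), from 0 to 21.5 in JAK2V617F (median 6.56) and from 0.129 to 20.4 in Ezh2 loss (median 2.65), and the controls were at 22.9, 12.5, 9.54, 43.3 and 21.1. Both single mutant groups had medians below the lowest control, and the double mutant libraries spread over the control range and above it. The interaction term, which is the double mutant's distance from the sum of the single-lesion changes, was log2 4.18 (SE 1.14, unadjusted p = 0.00104, limma adjusted p = 0.694). Ezh2 loss against control was at -2.35 (SE 0.72, adjusted p = 0.628). Without the title style term the interaction of Ifngr2 was 3.87 and called (adjusted p = 0.0246), where 1.77% of all genes were. The call therefore depends on that term.

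Among the receptors that do not use JAK2, Ifnar1 is the TYK2-binding chain of the type I interferon receptor (chr16:91485238-91507441, plus strand). It ran from 15.4 to 36.0 RPKM in double mutant libraries (median 21.7), from 5.16 to 39.8 in JAK2V617F (median 14.9) and from 10.9 to 34.6 in Ezh2 loss (median 28.6), and the controls were at 20.7, 12.1, 7.14, 19.3 and 27.2. The JAK2V617F libraries included both the lowest and the highest of the 26. The log2 change was 0.66 in the double mutant (SE 0.41, limma adjusted p = 0.902), -0.57 in JAK2V617F (SE 0.45) and 0.20 in Ezh2 loss (SE 0.45).

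Kit, the receptor of stem cell factor (chr5:75574916-75656722, plus strand), was steady and high. It ran from 75.6 to 165 RPKM in double mutant libraries (median 89.8), from 54.5 to 120 in JAK2V617F (median 84.0) and from 82.6 to 123 in Ezh2 loss (median 95.1), and the controls were at 64.3, 80.6, 93.0, 64.0 and 77.3. Above the highest control lay 3 of 7 double mutant, 2 of 7 JAK2V617F and 4 of 7 Ezh2 loss libraries. The log2 change was 0.49 in the double mutant (SE 0.21, unadjusted p = 0.0249, limma adjusted p = 0.722), 0.03 in JAK2V617F (SE 0.22) and 0.25 in Ezh2 loss (SE 0.22). Without the neutrophil-high libraries the double mutant value was 0.77 (SE 0.24, adjusted p = 0.508). In these sorted bulk samples, fewer cells of a type and less RNA per cell cannot be told apart.

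Csf1r, the receptor of M-CSF that marks monocytes and macrophages (chr18:61100598-61132149, plus strand), was found in a few libraries only. It was at 9.26, 3.07, 2.96 and 1.83 RPKM in double mutant replicates 7, 4, 6 and 3 and at 11.3 in Ezh2 loss replicate 4, with 662, 233, 335, 146 and 1094 reads. The other 21 libraries held 1 read in all, in control replicate 5, and the 7 JAK2V617F libraries held 0, which allows at most 0.0430 to 0.0916 RPKM per library. Csf1r overlaps Hmgxb3 on the opposite strand, and whether the counting used strand was not stated, so its level is uncertain. It passed the filter on low values through these 5 libraries alone. The 5 libraries carry the title numbers 23 to 27, while the other number-first titles end at 16, a pattern noticed after the values were seen. The labels do not say what the numbers mean. No control or JAK2V617F library has such a number, so for every receptor genotype and title number cannot be told apart in these libraries.

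Over a group, Csf1r held 1376 reads in double mutant (4 of 7 libraries), 0 in JAK2V617F, 1094 in Ezh2 loss (1 of 7) and 1 in control libraries (1 of 5). Since the reads come from 5 libraries, no ratio between genotypes is given. The fitted log2 change of Csf1r in the double mutant, 1.12 (SE 0.56, limma adjusted p = 0.816), depends on the 1 added to RPKM and is no bound. Markers of other myeloid cells moved with Csf1r in part. In the 5 libraries the 4 early granulocyte markers summed to 246 to 6897 RPKM and the 7 monocyte and macrophage markers to 824 to 5532, against 204 to 665 and 749 to 2174 in the other 21. Mpo, an enzyme of granulocyte precursors, was at 1622 in Ezh2 loss replicate 4 and 230 in double mutant replicate 7, but at 0 in double mutant replicate 4, and Ly6c2, a monocyte marker, was at 0.0427 in double mutant replicate 6. Their part in the Csf1r reads was not tested.

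**Figure D3:**
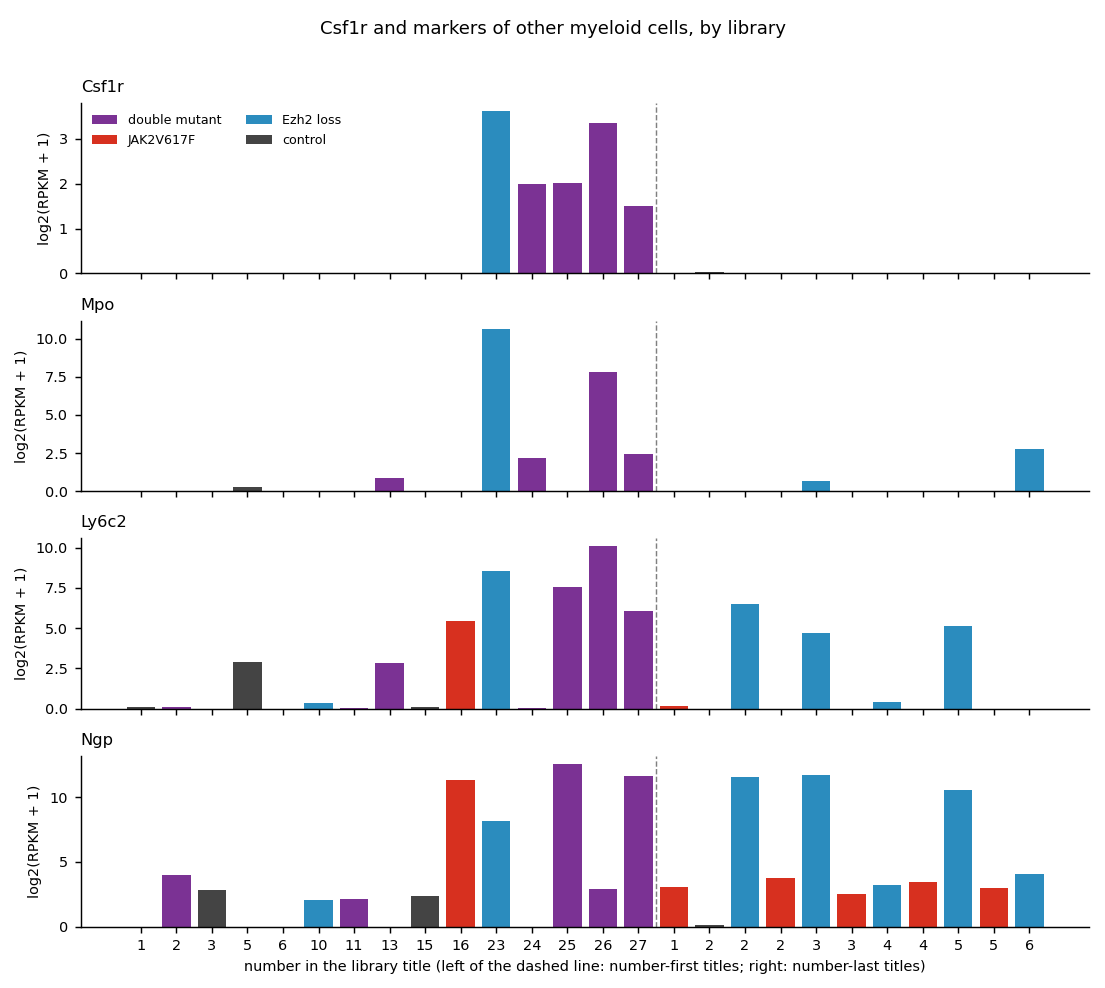
log2(RPKM + 1) of Csf1r, Mpo, Ly6c2 and Ngp (vertical axes) in each library, ordered by title style and title number (horizontal axis) and coloured by group. Csf1r bars above 1 RPKM stand only over the title numbers 23 to 27 of the number-first style, while Ngp, a neutrophil granule gene, is high in other libraries as well.

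In JAK2V617F against control, 0 of 9 receptors were called (0% of all genes) and 0 of 9 passed at an unadjusted p under 0.05 (4.14% of all genes did). Of the 8 receptors other than Csf1r, 3 were higher and 5 lower, from -0.70 for Il6st to 0.89 for Csf2rb, with a median of -0.16, against -0.02 over all genes. In Ezh2 loss against control the counts were again 0 of 9 called (0% of all genes) and 0 of 9 at the unadjusted p (6.07% of all genes), with 5 of the 8 higher and a median of 0.22, against -0.03 over all genes. Within number-first libraries, where each single mutant has only 2 libraries against 4 controls, 0 of 9 were called in JAK2V617F or Ezh2 loss and 0 of 9 passed at the unadjusted p in either, where 2.69% and 6.74% of all genes did. The mutant groups share the same 5 controls, so their values are set side by side and not compared as independent results. Precision differed between receptors. Kit had the narrowest intervals of the 9, -0.42 to 0.49 in JAK2V617F and -0.21 to 0.70 in Ezh2 loss. Csf2rb had the widest, -0.69 to 2.47 in JAK2V617F and -1.04 to 2.12 in Ezh2 loss.

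**Figure D4:**
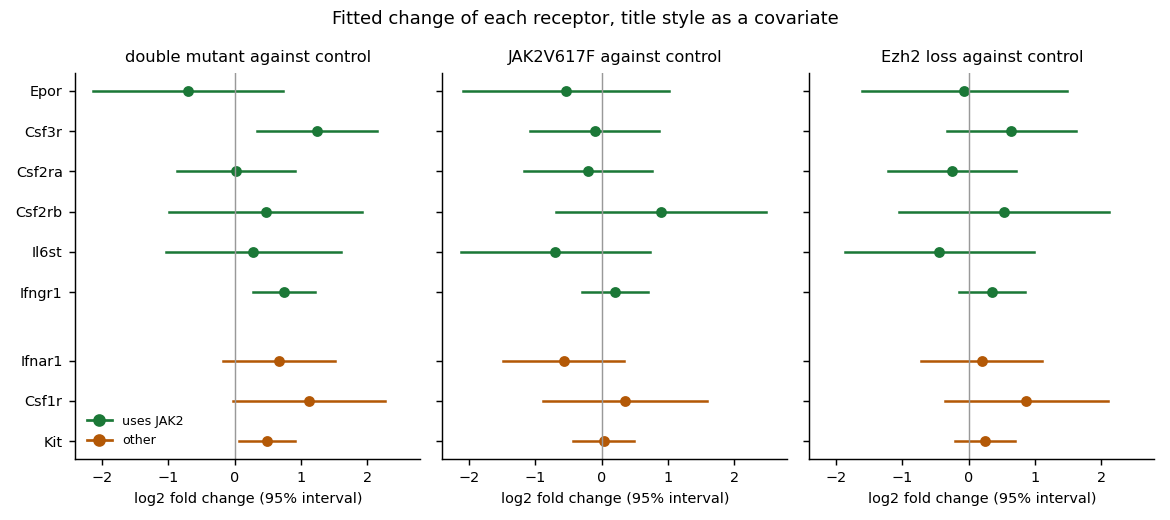
Fitted log2 fold change against control (horizontal axes, with 95% intervals) of each receptor in double mutant, JAK2V617F and Ezh2 loss libraries, with JAK2-using receptors above and the others below. Intervals of Csf3r (0.34 to 2.14), Ifngr1 (0.28 to 1.21) and Kit (0.07 to 0.91) lie above 0 in the double mutant before adjustment, and no receptor passes after it.

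Ezh2 loss on the JAK2V617F background was read from the double mutant against JAK2V617F. There 0 of 9 receptors were called (0.033% of all genes), and 3 of 9 passed at an unadjusted p under 0.05, where 8.06% of all genes did. Csf3r was at log2 1.35 (SE 0.48, limma adjusted p = 0.407), Ifnar1 at 1.24 (SE 0.45, adjusted p = 0.418) and Ifngr1 at 0.54 (SE 0.25, adjusted p = 0.576). In 6 of 7 double mutant libraries Csf3r and Ifngr1 were each above the highest JAK2V617F library, whereas for Ifnar1 0 of 7 were. Between the title styles the Csf3r value moved, and within number-first libraries it was 0.62 (adjusted p = 0.910). There the 2 JAK2V617F libraries had 9.16 and 13.8 RPKM while 4 of the 5 number-last ones had 3.15 to 4.15. Without the style term Ifngr1 was called (log2 0.80, SE 0.22, adjusted p = 0.0447), where 2.26% of all genes were, and the Ifnar1 value was 0.66.

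JAK2V617F on the Ezh2 loss background, the double mutant against Ezh2 loss, gave 0 of 9 called (0% of all genes) and 0 of 9 at the unadjusted p (7.84% of all genes). The interaction of both lesions gave 0 of 9 called (0% of all genes) and 0 of 9 at the unadjusted p (6.09% of all genes). Taken as a per-library score, the mean log2 level of the 6 JAK2-using receptors minus that of the other 3 was -0.30 ± 0.42 in double mutant, -0.07 ± 0.59 in JAK2V617F, -0.36 ± 0.58 in Ezh2 loss and 0.07 ± 0.51 in control libraries (SD). The score ran from -0.90 to 0.29 in double mutant and from -0.43 to 0.65 in control libraries, so the groups overlapped in it. The score includes Csf1r. Without it, the mean log2 level of Ifnar1 and Kit was 5.63 in double mutant, 5.15 in JAK2V617F, 5.65 in Ezh2 loss and 5.16 in control libraries, beside 3.87, 3.37, 3.58 and 3.51 for the 6 JAK2-using receptors in the same groups, so the mean of either set was higher in double mutant than in control libraries. These scores are a description with no test.

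Of 10 tested further receptors of the JAK2 families, 6 cytokine receptors without JAK2, 11 further receptor tyrosine kinases, 3 ligands, 11 JAK and STAT genes and 21 negative regulators, 0 were called in any of the genotype comparisons, where 0% to 0.033% of all genes were, a share under which a list of this size would hold none. Among the other pathway genes in the double mutant against control, 6 of 6 cytokine receptors without JAK2 were higher (median 0.29) and 8 of 11 JAK and STAT genes were (median 0.36), against 6 of 10 for the JAK2 families (median 0.06) and -0.0067 over all genes. The genes named next are among those with the smallest p in their lists. Flt3, a tyrosine kinase receptor of lymphoid-primed progenitors, ran from 2.01 to 18.1 RPKM in double mutant and from 0.0144 to 2.02 in control libraries (log2 1.96, SE 0.66, limma adjusted p = 0.586).

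Among the 21 negative regulators, Socs2 and Cish, both targets of STAT5, had the smallest p in Ezh2 loss against control. Socs2, which limits growth hormone and cytokine signals, ran from 2.08 to 26.2 RPKM in Ezh2 loss libraries and from 15.7 to 59.5 in controls (log2 -1.66, SE 0.46, limma adjusted p = 0.615). Cish, which binds activated cytokine receptors, ran from 15.1 to 43.3 RPKM in Ezh2 loss and from 39.1 to 78.2 in controls (log2 -1.16, SE 0.43, adjusted p = 0.718). By title style 7 genes of these lists were called, and 11% of all tested genes were. Higher in number-first libraries were Crlf2 (log2 2.68), Socs1 (2.76), Pias3 (2.08), Il27ra (1.31), Pias2 (1.24) and Ifnar2 (1.04), and Il2rg, the common gamma chain, was lower (-0.77).

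The genes most like each receptor were ranked by Pearson r of log2(RPKM + 1) over the 26 libraries after group and style means were taken out. The closest were Mpo for Csf1r (r = 0.87), Zfp36l2 for Kit (0.80), Atf7ip for Csf2ra (0.76), Hmgn3 for Ifngr1 (0.76), Grn for Csf3r (0.74), G2e3 for Csf2rb (0.73), Iars2 for Epor (0.72), Leng9 for Ifnar1 (0.70) and Tmem48 for Il6st (0.69). These are the highest among the 12116 tested genes after predicted and micro-RNA genes were passed over, and they share libraries and depth. The value for Csf1r includes Ezh2 loss replicate 4 and double mutant replicate 7, where Mpo was at 1622 and 230 RPKM.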

How the data were processed

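The authors deposited 1 table of RPKM for 23416 genes in 26 libraries, and 0 columns were left unmapped. STAR 2.4.2a, SAMtools 0.1.19 and Subread 1.5.0 with mm10/GRCm38 are named per the submitters' processing notes, while strand setting and annotation were not given in the sources used here. Groups follow the genotype label, which spells the double mutant's allele JAK2V17F, taken here as JAK2V617F. Replicates are numbered to name libraries, not to pair them.

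Reads per library were estimated from the whole-number steps of low RPKM values with gene lengths from GENCODE M21, which also gave gene coordinates. Reads per receptor used the smallest gene length at which the counts came out whole. That length differed from GENCODE M21 for each of the 9 receptors (Il6st 5452 against 11099 bases). limma 3.58.1 (R 4.3.3; eBayes with trend and robust) was fitted to log2(RPKM + 1), with group and title style as terms, to 12116 genes, and was tested on simulated data. The 9 receptors are always named, and pathway genes by adjusted p under 0.05 or the 3 smallest p in a list. Some genes that this rule picks are not reported here. The members, the lists and the neutrophil covariate were chosen with earlier results of these data known. Alternatives that leave out title numbers 23 to 27 or neutrophil-high libraries were added after seeing the data. The largest number of equal values above 0 in any pair of libraries was 0. Csf1r overlaps an antisense gene, and Csf2rb has a close copy nearby that it does not overlap.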

Additional observations from a re-analysis of the deposited data

Results flagged for a closer look

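In 35 sets of a receptor and a group, 4 had 1 library far from the rest by Dixon's test. Chance gives about 1 in 20 for normally spread values, a rate that does not hold for Csf1r in Ezh2 loss and control libraries, where 1 library above others at 0 passes whatever its value. Csf1r supplied 3 of them: double mutant replicate 7 at 9.26 RPKM, Ezh2 loss replicate 4 at 11.3 RPKM, and control replicate 5 at 0.0212 RPKM, which is a single read among controls that otherwise held none. Csf2rb supplied the other, double mutant replicate 3 at 11.9 RPKM, against 0 to 4.66 RPKM in the other 6 double mutant libraries.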

How the results depend on the processing

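No paired analysis was possible because the title numbers of number-first libraries are unique, and those shared among number-last libraries come with no stated meaning. No setting called a receptor in a genotype comparison except the fit without title style, which called 1 (Ifngr1, double mutant against JAK2V617F, log2 0.80), and leaving out any 1 library called 0.

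With title style in the fit, genes called over all 12116 numbered 1 in the double mutant against control, 4 against JAK2V617F, 0 against Ezh2 loss, 0 in either single mutant against control, 0 in the interaction and 1331 by style. Without the style term they were 0 (double mutant against control), 274 (against JAK2V617F), 85 (against Ezh2 loss), 1 (JAK2V617F against control) and 215 (interaction). In number-first libraries they were 0, 8 and 8 for the double mutant against control, JAK2V617F and Ezh2 loss. For the double mutant against control they were 2 with no filter, 4 with the filter at RPKM 5, 2 after quantile normalization, 0 with only the groups compared, 6 with array weights, and 0 with the neutrophil covariate or without title numbers 23 to 27. Against JAK2V617F they were 12 with array weights and 0 without title numbers 23 to 27. Against Ezh2 loss they were 1 with no filter, 3 with the neutrophil covariate and 1 without those title numbers. Ezh2 loss against control gave 2 with only the groups compared and 1 without those numbers, JAK2V617F against control 1 at pseudocount 0.1, the interaction 1 with no filter, and style 664 without the neutrophil-high libraries. Leaving out 1 library at a time gave 0 to 6 for the double mutant against control, 3 to 8 against JAK2V617F, 0 to 1 against Ezh2 loss, 0 to 1 for each single mutant against control, and 0 to 1 for the interaction.

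The sign of some uncalled log2 changes turned, and the cause was not tested. Against control in JAK2V617F, number-first libraries gave Csf3r 0.69, Ifngr1 -0.024 and Kit -0.11; Csf3r was 0.16 with only the groups compared and 0.13 with array weights, Kit -0.026 with array weights and -0.11 without neutrophil-high libraries, and Csf1r -0.0060 without style. In Ezh2 loss, Csf2ra was 0.19 and Ezh2 0.080 in number-first libraries, Csf2ra 0.17 and Ifnar1 -0.19 with the neutrophil covariate, Epor 0.053 at pseudocount 0.1 and 0.11 without title numbers 23 to 27, and Il6st 0.11 without style. In the double mutant, Csf2ra was -0.048 after quantile normalization, Il6st -0.036 with the neutrophil covariate, Csf2rb -0.084 and Il6st -0.051 without neutrophil-high libraries, and Jak2 0.028 without title numbers 23 to 27. By style, quantile normalization gave Csf2rb -0.090 and Csf3r -0.17, and median ratio scaling gave Csf3r -0.025. Flt3l against JAK2V617F was -0.078 in number-first libraries and with only the groups compared, and Osm against Ezh2 loss was 0.10 without style and 0.49 in both of those settings. Leaving out 1 library, the ranges that crossed 0 were, for Ezh2 loss, Csf2ra -0.57 to 0.029 and Epor -0.24 to 0.14; for the double mutant, Csf2ra -0.18 to 0.22; for JAK2V617F, Csf2ra -0.39 to 0.042, Csf3r -0.44 to 0.037, Ifngr1 -0.0083 to 0.36, Kit -0.048 to 0.18, Ezh2 -0.011 to 0.57 and Jak2 -0.30 to 0.10; and by style, Csf3r -0.22 to 0.29. Csf3r, Ifngr1 and Kit stayed higher in the double mutant than in control in every setting run. Without the neutrophil-high libraries no Ezh2 loss library remains, so its comparisons have no value there.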
